A study of Mus musculus with 8 samples.

Results

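The genes described here are those whose level set the 2/4 clone apart from its parental line both without and with retinoic acid (RA). All 4 arrays of the clone were compared with all 4 arrays of the parental line, with treatment as a covariate, so all 8 arrays of the study entered. A gene was counted as separated when its 4 clone arrays all lay above, or all lay below, the 4 parental arrays. Of 26210 genes tested, 6633 met that rule, of which 4685 had a gene symbol. The parental line was N18TG2, a mouse neuroblastoma line. The clone, 2/4, is a single clone of that line that expresses ChAT, which synthesises the transmitter acetylcholine (choline acetyltransferase), and it was kept under the selection drug G418 at 200 µg/mL. Cells were grown in DMEM with 10% serum, and RA was given at 1 µM in DMEM with 1% serum. Each line was profiled untreated on 2 arrays and with RA on 2 arrays. The labels give no length of RA treatment and no medium for untreated cells. The serum level may therefore differ together with RA, and G418 goes with the clone. The extraction protocol names hippocampus although each sample is a cell line. Whether arrays of 1 group came from different cultures is not stated, so p-values here reflect array-to-array spread, which may be technical. With treatment as an additive covariate, a line difference that changes with RA adds to that spread. The standard errors and p-values of the line difference therefore hold both. For Dio2 the standard error was 0.89 in this fit, and 0.27 within each treatment with 1 mean per group.

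Neuroblastoma cells derive from sympathoadrenal precursors of the neural crest and keep parts of the programs of noradrenergic neurons, chromaffin cells and immature mesenchyme. A line and a clone grown from 1 of its cells can differ through the introduced gene, through selection and through differences that the founding cell already carried, and a comparison of 1 clone with its parent does not separate these. N18TG2 was derived by selection for resistance to thioguanine, a purine analogue that is toxic only after Hprt, the purine salvage enzyme, has acted on it.

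Levels are given as log2 scaled intensity, the log2 of the background-subtracted signal minus the 75th percentile of its array, so a value of 0 is the level of that percentile. The 75th percentile itself ran from 264.8 to 1264 intensity units. Between 48.6% and 63.3% of spots were well above background on 7 arrays, and 72.1% on the array clone RA replicate 1, which stood apart. The clone RA pair correlated at 0.9625 across genes, and the other 3 pairs at 0.983 to 0.9872. A principal component analysis placed 52.43% of the variance on component 1, which separated the lines, with parental arrays at -110.1 to -88.4 and clone arrays at 73.1 to 134.1. Component 2 held 18.49% and placed clone RA replicate 1 at -121.9. The parental arrays lay in slide columns 1 and 3 and the clone arrays in columns 2 and 4, in both rows of 1 slide. Slide row therefore cancels in the line difference, whereas the position in odd or even columns cannot be told apart from the line.

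Chat and Lmna, the genes of ChAT and of lamin A/C, the nuclear lamina protein in the title of the series, were not among the separated genes. Chat read -2.63 and -4.57 in untreated parental cells, -3.22 and -5.06 in parental cells with RA, -3.73 and -2.71 in the untreated clone and 1.10 and -2.58 in the clone with RA. The clone array at 1.10 was far above the others, and the lines overlapped. The line difference of Chat was 1.89 ± 0.98 (log2, standard error, limma adjusted p = 0.195), and 0.85 without clone RA replicate 1 (adjusted p = 0.363). Lmna read 3.80, 3.68, 3.36 and 3.43 on the parental arrays, 4.86 and 5.17 in the untreated clone and 3.53 and 3.50 in the clone with RA, where it overlapped the parental range. Its line difference was 0.70 ± 0.28 (limma adjusted p = 0.105), and a fit with 1 mean per group instead of treatment as a covariate called it (adjusted p = 0.0297). For Chat, the array therefore does not show the labelled expression on every clone array, and the lines are named here by their labels. Chat was read by 1 kept probe, and whether that probe matches the ChAT sequence that the clone expresses was not checked. These readings therefore do not show whether the clone expresses its introduced ChAT.

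Across all genes, limma called 6275 of 26210 line differences at an adjusted p under 0.05, which is 23.9%, with 3733 higher in the clone (14.2%) and 2542 lower (9.7%). Separation without a test held for 25.3% of genes, with 3969 above (15.1%) and 2664 below (10.2%), and 5224 genes (19.9%) were both called and separated, 3132 above (11.9%) and 2092 below (7.98%). Of the called genes 83.3% were separated, and of the separated genes 78.8% were called. The call and the separation rest on the same values, so neither supports the other. For the separated genes the median difference was 1.41 for those above and -1.22 for those below. The gap, the distance from the nearest clone array to the nearest parental array, had a median of 0.45 above and 0.37 below. It exceeded 4 log2 units, or 16-fold, for 75 genes above and 73 below. Just inside the rule lay Ndufa8, a subunit of respiratory complex I, whose lowest clone array read 3.99 and highest parental array 3.99 (difference 0.60 ± 0.24, limma adjusted p = 0.11). Just outside lay Ilrun, an inflammation regulator, whose highest clone array and lowest parental array both read 2.39. Scaling moved the balance of directions. The share of separated genes that were above was 59.8%, and it was 49.2% after quantile normalization (3373 above and 3489 below) and 49.4% with normexp background correction (2403 and 2459). The median difference of all genes was 0.12, and -0.04 and -0.06 under those scalings.

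The untreated arrays and the RA arrays share no array, so each gives its own value of the line difference. In the untreated arrays alone, 15769 genes (60.2%) had no overlap between the lines, and in the RA arrays alone 15418 (58.8%). Of these, 9251 lay on the same side in both, which is 58.7% of the first set and 60.0% of the second, while 1263 lay on opposite sides. Across the 26210 genes the differences in both treatments had a Pearson r of 0.697, given as a description, since genes are not independent and the column positions of the lines were the same. The difference was larger under RA for 4583 of the 6633 separated genes. No share over all genes stands beside this count, so it is no result about the separated genes. Slide row goes with the contrast between treatments, and the outlying clone RA replicate 1 is among the RA arrays.

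**Figure D1:**
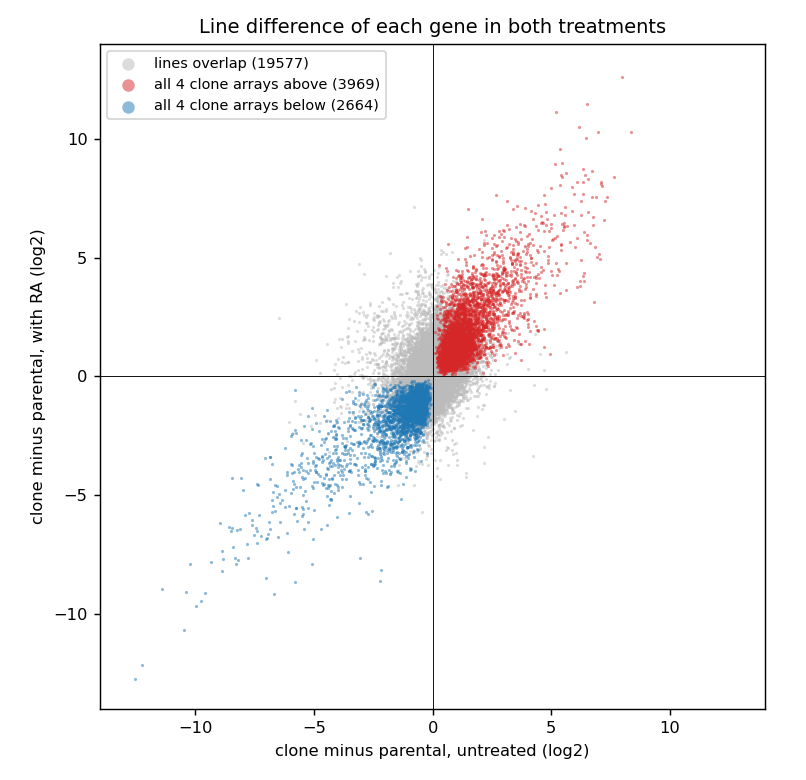
Clone minus parental difference of each of 26210 genes in untreated cells (horizontal axis, log2) and with RA (vertical axis, log2), 1 point per gene, each from 2 arrays per line. The 3969 genes with all clone arrays above lie in the upper right quadrant and the 2664 with all below in the lower left, and the grey points are genes whose lines overlapped.

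The genes with the widest gaps among those above background on all 8 arrays had varied roles, from channels and receptors to transcription factors and matrix proteins. They were chosen by their gap, so their differences are descriptions and are larger than those of a typical gene. Pnma5, a paraneoplastic antigen family member, read -3.63, -3.32, -3.98 and -4.31 on the parental arrays and 3.88, 3.86, 3.39 and 3.45 on the clone arrays. That is a 176-fold difference in which the spread within each line stayed within 1 log2 unit, 7.46 ± 0.20 (limma adjusted p = 1.6e-06). Prkar1b, a regulatory subunit of protein kinase A, read -2.43 and -2.53 in untreated parental cells, -3.91 and -4.24 in parental cells with RA and 3.85 to 4.45 in the clone, a difference of 7.43 ± 0.38. Cdk18, a kinase of the cyclin-dependent family, read -1.34 and -1.73 untreated and -3.37 and -4.89 with RA in the parental line, against 3.97 to 4.62 in the clone (7.13 ± 0.49). In each of Prkar1b and Cdk18 the parental arrays with RA were lower than those without, while the clone arrays stayed within 1 log2 unit of each other. Scn11a, a sodium channel of sensory neurons, Hcrtr1, an orexin receptor, and Nrg1, the ErbB receptor ligand neuregulin, differed by 7.21 ± 0.65, 6.00 ± 0.26 and 6.71 ± 0.52. Slit1, a repulsive axon guidance ligand, read -4.79 to -4.15 in the parental line, 2.58 and 2.74 in the untreated clone and 0.88 and 0.66 in the clone with RA (6.13 ± 0.31). Col16a1, a collagen chain, and Pdgfc, a platelet-derived growth factor, differed by 5.94 ± 0.28 and 5.50 ± 0.30. Slxl1, an X-linked gene of a testis-expressed family with near-identical copies, differed by 6.81 ± 0.46, and its copies may share the probe.

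Lower in the clone with the widest gap was Dlk1, a membrane protein of the Delta-like family found in chromaffin precursors. It read 5.55 and 5.91 in untreated parental cells, 4.40 and 4.96 with RA, -3.91 and -3.81 in the untreated clone and -3.51 and -5.40 in the clone with RA. The 2 lines were 7.91 log2 units apart at their nearest arrays, and the difference was -9.36 ± 0.40, or 658-fold (limma adjusted p = 6.89e-06). The neuroendocrine transcription factor gene Insm1 read 3.79 to 4.39 on the parental arrays and -4.23 to -3.28 on the clone arrays (-7.98 ± 0.28). Gadd45g, a growth arrest and DNA damage gene, read 3.09 and 2.92 untreated and 5.44 and 4.75 with RA in the parental line, whereas all 4 clone arrays lay between -4.17 and -3.36 (-7.92 ± 0.50). The parental RA arrays were thus the high ones for Gadd45g, and the clone arrays with RA did not follow them. Fkbp10, a collagen chaperone of the endoplasmic reticulum, Wnk2, a kinase that restrains growth signalling, Lhx2, a LIM homeobox factor of forebrain progenitors, and Spint1, a protease inhibitor, were lower by -6.97 ± 0.27, -6.24 ± 0.27, -5.68 ± 0.26 and -5.95 ± 0.43. Riox1, a ribosomal oxygenase, stood at -5.92 ± 0.29. Dmrtc1c2 and Ctag2l1, X-linked genes with near-identical copies, stood at -6.65 ± 0.24 and -5.65 ± 0.25 and are uncertain for that reason.

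**Figure D2:**
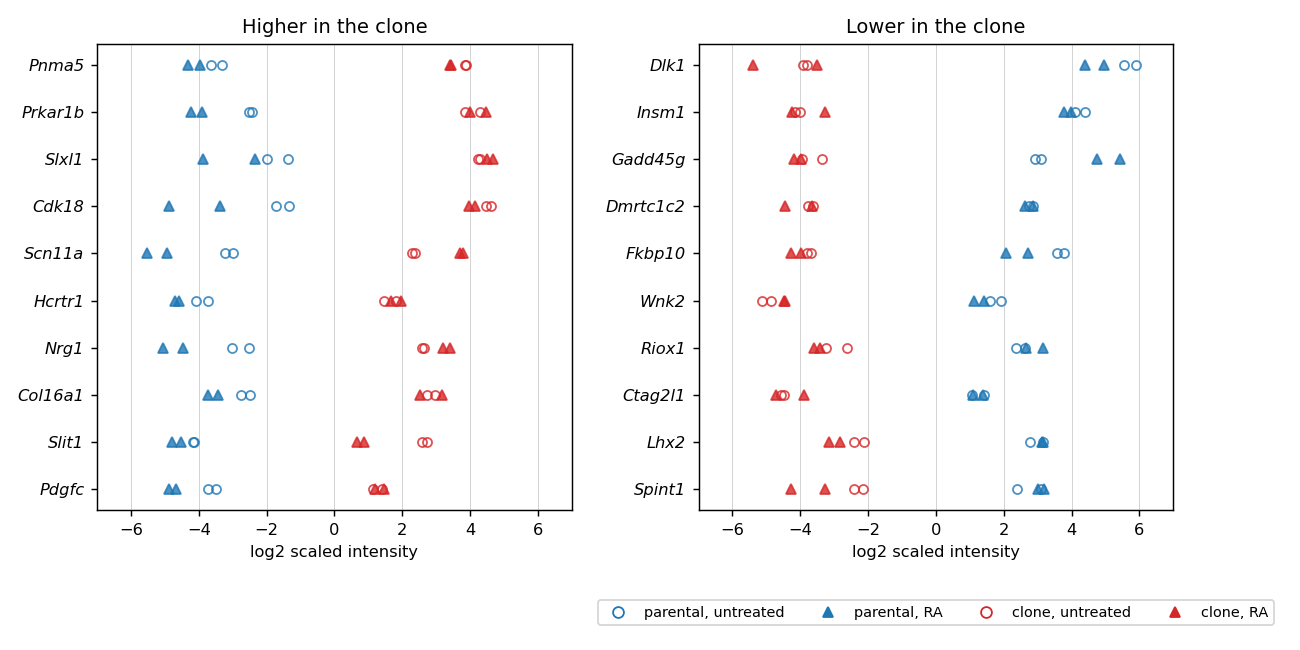
Log2 scaled intensity on each of the 8 arrays for the 10 higher (left) and 10 lower (right) named genes with the widest gap, 1 symbol per array, blue for parental, red for clone, open circles for untreated and filled triangles for RA. In every row the 4 red symbols lie on one side of the 4 blue ones, and the spread within a line is small against the distance between the lines.

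A further 253 called and separated genes were well above background on all 4 clone arrays and on no parental array, and 122 showed the reverse. For these only a bound is given, taken from the mean of the bright line and the lowest signal well above background in the dim line. Each "at least" holds only for the background-subtracted signal used here. Steap1, a membrane metalloreductase, read 4.67, 4.44, 5.40 and 4.63 on the parental arrays. No clone array was well above background, which makes it at least 1375-fold lower (limma adjusted p = 1.28e-06). Rpl39l, a testis-enriched paralogue of a ribosomal protein, read 4.66, 4.33, 4.79 and 4.38 and was at least 1160-fold lower. It is a close copy of Rpl39, whose difference was 0.35 ± 0.26 and was not called (limma adjusted p = 0.356), and is uncertain for that reason. Mt1, a metal-binding metallothionein, was at least 288-fold lower, Dcaf8l and Gm15023, X-linked genes, at least 344-fold and 247-fold, and Rbpms2, an RNA-binding protein of smooth muscle, at least 253-fold. In the other direction Ror2, a receptor for Wnt5a, was not well above background in the parental line and read 0.24 and 0.55 in the untreated clone and 2.03 and 2.53 in the clone with RA, at least 113-fold higher. Lrrn2, a leucine-rich neuronal membrane protein, read 0.56, 0.74, 1.37 and 1.86 and was at least 97.9-fold higher. Lpar4, a lysophosphatidic acid receptor, Col22a1, a collagen of tissue junctions, Rusc2, a vesicle adaptor, and Cpq, a peptidase, were at least 86.2-fold, 77.3-fold, 50.2-fold and 48.7-fold higher. The fitted size of such differences depends on how background is treated. With normexp the values of Steap1 and Ror2 were -8.26 and 4.44 (log2), both smaller than the bounds given above. The value of 56 of 155 called named genes became over 1.5 times smaller with normexp, with none larger.

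The promoters of some genes with large line differences in either direction are shown because they can be set against the count of CpG dinucleotides in all promoters. Each is the 250 bases before the gene's start, 5′ to 3′ on the gene's strand, from RefSeq on build GRCm38.p6, with every CG in capitals. Steap1 and Rpl39l were bright only in the parental line and Ror2 and Lrrn2 only in the clone, and Pnma5 had the widest gap among genes higher in the clone and above background on all 8 arrays.
Steap1: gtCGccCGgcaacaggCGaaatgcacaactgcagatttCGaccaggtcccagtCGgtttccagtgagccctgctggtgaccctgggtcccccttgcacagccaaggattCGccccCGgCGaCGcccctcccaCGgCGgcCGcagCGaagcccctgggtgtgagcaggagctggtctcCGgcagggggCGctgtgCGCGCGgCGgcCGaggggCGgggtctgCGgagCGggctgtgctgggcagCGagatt
Rpl39l: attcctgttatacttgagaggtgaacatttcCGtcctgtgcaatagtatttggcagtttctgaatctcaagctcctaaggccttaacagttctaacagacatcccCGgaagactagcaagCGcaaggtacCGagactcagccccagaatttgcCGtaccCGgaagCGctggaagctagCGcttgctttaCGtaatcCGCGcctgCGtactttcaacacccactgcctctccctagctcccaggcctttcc
Ror2: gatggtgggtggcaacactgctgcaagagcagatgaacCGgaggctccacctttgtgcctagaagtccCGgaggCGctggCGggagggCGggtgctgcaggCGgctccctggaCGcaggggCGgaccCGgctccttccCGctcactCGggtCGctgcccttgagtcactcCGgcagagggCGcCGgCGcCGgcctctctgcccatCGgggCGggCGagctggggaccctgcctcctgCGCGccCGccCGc
Lrrn2: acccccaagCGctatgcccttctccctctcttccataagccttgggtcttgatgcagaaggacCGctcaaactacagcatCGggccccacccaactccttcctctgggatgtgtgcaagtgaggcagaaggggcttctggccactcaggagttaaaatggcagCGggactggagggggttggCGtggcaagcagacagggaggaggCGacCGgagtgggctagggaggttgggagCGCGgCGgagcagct
Pnma5: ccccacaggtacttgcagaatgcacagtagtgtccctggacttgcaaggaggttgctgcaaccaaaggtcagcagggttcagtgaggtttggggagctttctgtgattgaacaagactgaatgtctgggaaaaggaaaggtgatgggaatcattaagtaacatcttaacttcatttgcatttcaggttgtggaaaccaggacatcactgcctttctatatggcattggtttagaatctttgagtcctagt
They lie at chr5:5749318-5749567 (minus strand), chr16:10169978-10170227 (plus), chr13:53286125-53286374 (minus), chr1:132880105-132880354 (plus) and chrX:73037104-73037353 (minus). The motif CG reads the same on both strands. Steap1 and Ror2 held 24 each, Rpl39l 12, Lrrn2 10 and Pnma5 0, so that CpG-rich windows stand on both sides. A window was found for 12035 of the 15149 tested genes with a symbol, with the start of most CG taken where several were listed. The median count was 15 over all of these, 14 for genes above and 16 for genes below. It was 7.5 for the 116 windows of genes dim on all parental arrays and 12.5 for the 76 windows of genes dim on all clone arrays. At least 10 CG were present in 68.5% of all windows, 63.7% of those above, 76.4% of those below, 42.2% of those dim in the parental line and 60.5% of those dim in the clone. How the count of CG goes with the level of a gene was not examined, these shares were not tested, and no methylation was measured.

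Of 24 tested growth cone and cytoskeleton genes 17 rose (70.8%, against 14.2% of all genes) and 0 fell, with a median of 1.45 against 0.12 for all genes. Stmn2, a microtubule regulator of growth cones, read 1.74 and 1.58 in untreated parental cells, -0.40 and -1.30 with RA, and 5.47, 5.59, 6.24 and 6.28 in the clone. The parental and clone arrays moved apart with RA, and the line difference was 5.49 ± 0.61 (limma adjusted p = 0.000538). Gap43, a growth cone membrane protein, read 3.13 to 4.39 in the parental line and 5.75 to 6.05 in the clone (2.23 ± 0.24). Dclk1, a microtubule-binding kinase, and Tubb2a, a neuronal tubulin, rose by 3.68 ± 0.30 and 1.82 ± 0.27. The count of 17 was the same without clone RA replicate 1, with quantile normalization and with normexp. These settings reuse the same arrays. Like the other gene lists, this list was chosen with earlier results of these data known, so its share is a description and no independent support.

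Of 28 synaptic vesicle genes 11 rose (39.3%, against 14.2% of all genes) and 1 fell (3.57%, against 9.7%), with a median of 0.65. Rab3a, a vesicle GTPase, Syn1, which tethers vesicles to actin, and Syt11, a synaptotagmin, rose by 3.07 ± 0.30, 3.09 ± 0.30 and 2.12 ± 0.23. Syn1 read -0.62 to 0.50 on parental and 2.73 to 3.37 on clone arrays, so the lines lay over 2 log2 units apart. Vamp1, a vesicle SNARE, fell, from 0.27 to 0.60 on parental arrays to -2.70 to -1.57 on clone arrays (-2.60 ± 0.26). With normexp 7 rose instead of 11. Of 15 dense core granule and neuropeptide genes 9 rose (60%) and 1 fell (6.67%), with a median of 0.94. Npy, the neuropeptide Y gene of sympathetic neurons, read -3.26 and -3.21 in untreated parental cells and 2.72 to 3.68 in the clone. With RA no parental array was well above background (-7.52 and -6.34), so the fitted difference of 8.34 ± 0.81 rests on 2 measured parental arrays. Scg2, a granin, and Pcsk2, a prohormone convertase, rose by 2.53 ± 0.27 and 4.11 ± 0.33. The gene that fell, Pcsk1, the other main convertase, was dim in the clone (at least 2.46-fold lower) and was not called with normexp (-0.88, adjusted p = 0.118).

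Of 18 voltage-gated channel genes 8 rose (44.4%, against 14.2% of all genes) and 0 fell (median 1.28), and with normexp 6 rose (median 0.64). Scn3a, a sodium channel of immature neurons, read -2.05 and -2.53 untreated and -4.69 and -4.75 with RA in the parental line and 0.71 to 2.55 in the clone (5.22 ± 0.68). Cacna1h and Cacna1g, low-threshold calcium channels, rose by 2.80 ± 0.33 and 1.57 ± 0.21. Of 20 axon guidance genes 6 rose (30%) and 1 fell (5%, against 9.7% of all genes). Next to Slit1, its relative Slit2 rose by 2.28 ± 0.45, the netrin receptor gene Unc5a by 2.28 ± 0.36 and the ephrin gene Efna5 by 1.81 ± 0.28.

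**Figure D3:**
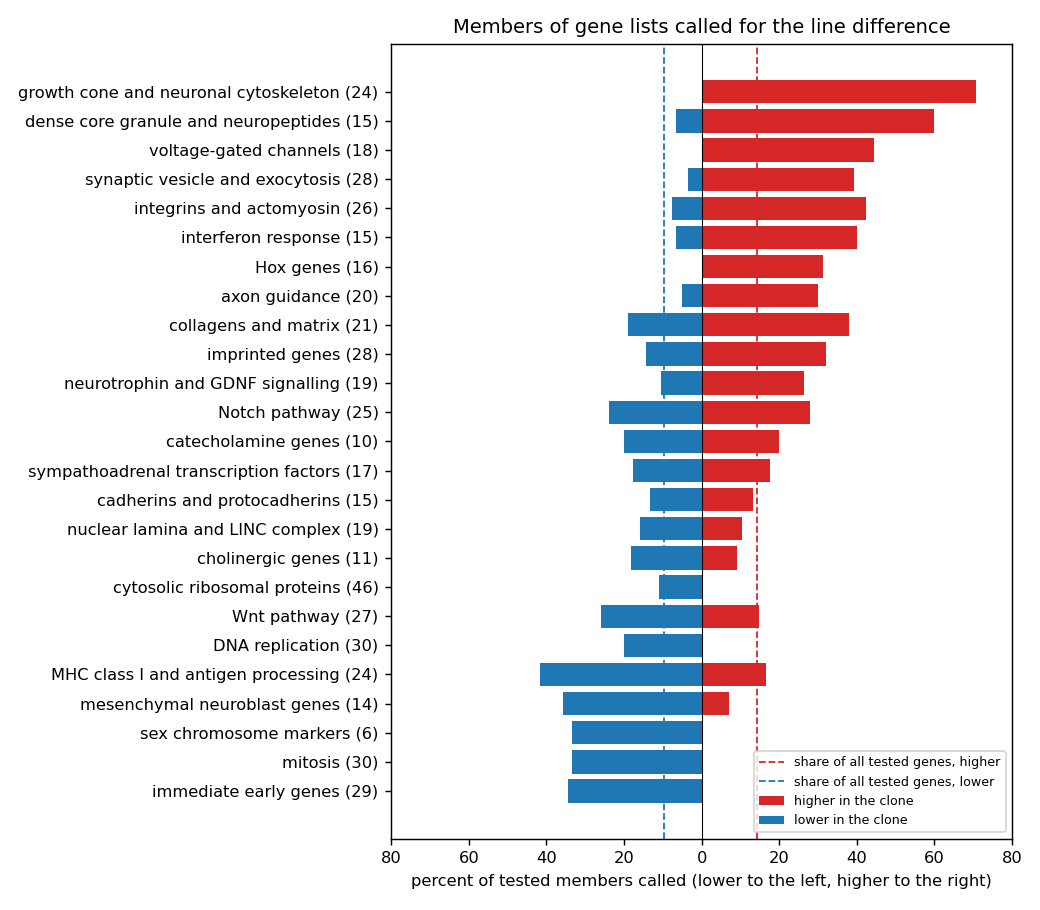
Percent of tested members of each of 25 gene lists that limma called higher (red, to the right) or lower (blue, to the left) in the clone, with the number tested in brackets and dashed lines at the shares of all genes, 14.2% and 9.7%. Growth cone and dense core granule genes stand furthest to the right, and mitosis and immediate early genes lie to the left with 0 called higher.

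The transmitter and lineage genes did not move as a group. Of 10 catecholamine genes 2 rose and 2 fell (20% each, against 14.2% and 9.7% of all genes). Dbh, which makes noradrenaline, read 3.82 and 3.57 in untreated parental cells, 0.98 and 0.28 with RA, and -3.29 to -1.44 in the clone (-4.79 ± 0.42). Its parental level was lower with RA, yet all parental arrays stayed above all clone arrays. Slc18a1, the vesicular monoamine transporter of chromaffin cells, rose by 3.97 ± 0.31, with 2 of 4 parental arrays above background and a value of 1.66 with normexp. Maoa, which breaks down monoamines, rose by 1.61 ± 0.22 (1.03 with normexp). Of 11 cholinergic genes 1 rose (9.09%) and 2 fell (18.2%). Slc18a3, the vesicular acetylcholine transporter, whose gene lies within the Chat locus, read -0.96 to 0.16 on parental arrays and -2.94 to -1.32 on clone arrays (-1.86 ± 0.21). Chka, a choline kinase, stood at -2.19 ± 0.27, and Chrnb2, a nicotinic receptor subunit, rose by 1.27 ± 0.24.

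Of 17 sympathoadrenal transcription factors 3 rose and 3 fell (17.6% each, against 14.2% and 9.7% of all genes). Apart from Insm1, Gata3 fell by -2.13 ± 0.38, while Tbx2 and Sox11, factors of sympathetic neuroblasts, rose by 2.48 ± 0.30 and 1.85 ± 0.25. Of 14 mesenchymal neuroblast genes 1 rose (7.14%) and 5 fell (35.7%). The receptor kinase gene Axl read -1.15 to 0.43 on parental arrays and -2.67 to -2.39 on clone arrays (-2.22 ± 0.31), and Sox9, a neural crest factor, stood at -2.19 ± 0.50. Without clone RA replicate 1, 3 fell instead of 5, as with normexp. Of 16 tested Hox genes 5 rose (31.2%) and 0 fell. Hoxb6 rose by 3.35 ± 0.28 (1.81 with normexp), with 2 of 4 parental arrays above background, and Hoxc4 by 1.74 ± 0.21.

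Genes of signalling pathways split in both directions. Of 25 Notch pathway genes 7 rose (28%) and 6 fell (24%), against 14.2% and 9.7% of all genes. The ligand gene Jag1 had no clone array well above background and was at least 56.5-fold lower, and Nrarp, a Notch-induced feedback inhibitor, at least 6.2-fold lower. Dtx1, a ubiquitin ligase that modifies Notch, read -2.70 to -2.29 on parental and 1.33 to 1.57 on clone arrays, with hardly any spread within a line (4.00 ± 0.21). Of 27 Wnt pathway genes 4 rose (14.8%, near the share of all genes) and 7 fell (25.9%), and with normexp 4 fell. The receptor genes Fzd1 and Fzd9 were at least 30.1-fold and 29.1-fold lower, whereas the feedback inhibitor gene Nkd1 was at least 12.8-fold higher and the receptor gene Ror2 was higher as given above. Of 19 neurotrophin and GDNF signalling genes 5 rose (26.3%) and 2 fell (10.5%, near the share of all genes). Bdnf read -0.82 to -0.36 on parental and -4.63 to -4.05 on clone arrays (-3.79 ± 0.23, and -2.46 with normexp). Artn, a GDNF family ligand, stood at -4.14 ± 0.34 (-1.97 with normexp), with 2 of 4 clone arrays above background, and Gfra2, a co-receptor of that family, rose by 2.58 ± 0.32 (1.23 with normexp).

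Matrix and adhesion genes changed in both directions. Of 21 collagen and matrix genes 8 rose (38.1%, against 14.2% of all genes) and 4 fell (19.05%, against 9.7%). Of 26 integrin and actomyosin genes 11 rose (42.3%) and 2 fell (7.69%). Col4a1 and Col4a2, the paired chains of basement membrane collagen, rose together. Col4a1 read -4.49 to -2.41 on parental and 0.20 to 0.61 on clone arrays (3.66 ± 0.35), and Col4a2 rose by 6.99 ± 0.37 (4.65 with normexp) with 2 of 4 parental arrays above background. Itga8 and Itga9, integrin alpha chains, rose by 4.06 ± 0.34 and 6.47 ± 0.58 (2.68 and 3.01 with normexp), Itga9 with 1 of 4 parental arrays above background, and Tpm2, a tropomyosin, rose by 2.90 ± 0.22. Of 15 cadherin, protocadherin and catenin genes 2 rose and 2 fell (13.3% each), which is near the shares of all genes and no result about the group. Ctnna2, the neuronal alpha catenin, read -1.93 and -1.43 untreated and -5.35 and -6.48 with RA in the parental line, where the RA arrays were not above background, and 4.71 to 5.62 in the clone (8.99 ± 0.91). Cdh6, a cadherin, fell from -0.78 to -0.30 on parental arrays to -5.43 to -4.68 on clone arrays (-4.55 ± 0.21, and -2.68 with normexp).

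Antigen presentation and interferon genes moved in different directions. Of 24 class I and antigen processing genes 4 rose (16.7%, near the 14.2% of all genes) and 10 fell (41.7%, against 9.7%). Without clone RA replicate 1, 2 rose and 9 fell. H2-K1 read 5.03 to 6.25 on parental and 0.38 to 1.72 on clone arrays (-4.46 ± 0.23), H2-D1 stood at -4.30 ± 0.21, H2-Q7 at -4.74 ± 0.27 and H2-Q6 at -3.00 ± 0.30. These class I genes share long stretches of near-identical sequence, so probes may read several of them. B2m, the common light chain, fell by -1.18 ± 0.23, while Psmb8 and Psmb9, subunits of the immunoproteasome, rose by 1.94 ± 0.25 and 1.29 ± 0.24. These 3 genes were chosen after their values were seen. Of 15 interferon response genes 6 rose (40%) and 1 fell (6.67%), and without clone RA replicate 1, 4 rose. Ifi35 read 0.25 to 0.56 on parental and 2.11 to 2.56 on clone arrays (1.92 ± 0.20), and Ddx58, the RNA sensor RIG-I, and Isg15, a ubiquitin-like protein, rose by 1.56 ± 0.26 and 1.31 ± 0.23.

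Of 29 immediate early genes, which respond first to growth signals, 10 fell (34.5%, against 9.7% of all genes) and 0 rose (median -0.65). Maff, a small Maf factor, read 1.62 to 2.33 on parental and -0.74 to -0.08 on clone arrays (-2.41 ± 0.26). Klf2 and Nr4a2, transcription factors induced by serum or depolarisation, fell by -1.42 ± 0.21 and -1.78 ± 0.28. Of 30 mitosis genes 10 fell (33.3%) and 0 rose (median -0.75), and without clone RA replicate 1, 7 fell. Nek2, a centrosome kinase, read 2.44 to 3.22 on parental and 0.01 to 1.58 on clone arrays (-2.08 ± 0.35), and Cdc25b, a cell cycle phosphatase, fell by -1.36 ± 0.28. Aurkb, a mitotic kinase, fell by -1.72 ± 0.35 (-0.99 with normexp). For these mitotic genes the clone RA arrays were the lowest of all, as with Cdc25b at 1.90 and 1.87 in the untreated clone and 0.41 and 0.65 with RA. Of 30 DNA replication genes 6 fell (20%, against 9.7% of all genes) and 0 rose (median -0.56). Without clone RA replicate 1, 3 fell (10%), a share near that of all genes. Rfc2, a clamp loader subunit, fell by -1.03 ± 0.24. In bulk RNA, fewer cells in division and less RNA per dividing cell cannot be told apart. Of 46 ribosomal protein genes 5 fell and 0 rose, which at 10.9% is near the 9.7% of all genes and no result about the group, with a median of -0.29 that was -0.09 after quantile normalization, and the largest was the paralogue Rpl39l. Rpl3l, a muscle paralogue, stood at -4.36 ± 0.34 (-1.97 with normexp), with 1 of 4 clone arrays above background, and Rpl28 at -1.01 ± 0.23 with a gap of 0.02.

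Of 28 imprinted genes, expressed from 1 parental allele, 9 rose (32.1%) and 4 fell (14.3%), against 14.2% and 9.7% of all genes. H19, a maternally expressed noncoding RNA, read 1.62 and 1.62 untreated and 3.84 and 5.38 with RA in the parental line, and -3.67 to -2.92 in the clone (-6.48 ± 0.61). Its probes carry the name H19 in the array file without an accession, and all 5 of them were separated in that direction. Slc22a18, a transporter, rose by 5.55 ± 0.41 (3.21 with normexp), with 2 of 4 parental arrays above background. Igf2r, the scavenger receptor of Igf2, rose by 3.98 ± 0.41 (2.21 with normexp), and Nap1l5, a nucleosome assembly gene named after its values were seen, by 2.62 ± 0.23. Of 19 nuclear lamina and LINC complex genes 2 rose (10.5%) and 3 fell (15.8%). Lemd3, an inner nuclear membrane protein, read 2.42 to 3.59 on parental and 0.32 to 1.19 on clone arrays (-2.22 ± 0.34). Tmpo, which binds lamins and chromatin, stood at -1.01 ± 0.23 (-1.74 as the mean of its 4 probes), and Syne1, a nesprin, rose by 2.30 ± 0.34 (1.38 with normexp and 3.61 as the mean of its probes).

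Some groups were noticed only after values were seen and are described on that footing. Mage genes of the A and B subfamilies, normally expressed in germ cells and in some tumours, had 14 members on the array, of which 7 passed the filter on dim probes. Those 7 and both Ctag2-like genes lay lower in the clone, but Magea5, Magea8, Mageb4 and Ctag2l2 had no clone array above background and passed through the parental line alone, so the count is no support for a shared direction. Magea1 read 2.18 to 2.67 on parental arrays and -6.87 to -4.26 on clone arrays (-8.10 ± 0.46), with 2 of 4 clone arrays above background, and Mageb4 was dim in the clone, with parental readings of 0.50 to 1.29. Of the 5 tested genes of the D, E, H and L subfamilies, which are expressed more widely, 3 rose and 0 fell, among them Magel2 (1.69 ± 0.24) and Magee1 (2.55 ± 0.30, and 1.36 with normexp). Mage A genes are near-identical to each other, so their probes may not be separate readings. Among the metallothioneins, Mt1 was lower as given above, and Mt3, the brain member, rose by 2.08 ± 0.29.

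Hprt read 1.53 and 1.54 in untreated parental cells, 1.33 and 2.07 with RA, 5.03 and 5.20 in the untreated clone and 4.07 and 4.50 with RA. The lines were 2.00 log2 units apart at their nearest arrays, and the difference was 3.08 ± 0.29, or 8.48-fold (limma adjusted p = 0.000253). In RefSeq order its tested neighbours Phf6, Plac1, Fam122b, Mospd1 and Rtl8c were separated in the same direction, which makes a run of 6 genes. Plac1, a trophoblast gene, was higher by 5.54 ± 0.47 (2.26 with normexp), Fam122b by 1.72 ± 0.25 and Mospd1 by 1.12 ± 0.19. Rtl8c differed by 0.94 ± 0.22, with adjusted p values of 0.0516, 0.0517 and 0.051 without clone untreated replicate 1, clone untreated replicate 2 or parental untreated replicate 2. Phf6 differed by 0.69 ± 0.21 (adjusted p = 0.0464) and lost its call without any 1 of the 8 arrays (adjusted p from 0.0569 to 0.11).

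**Figure D4:**
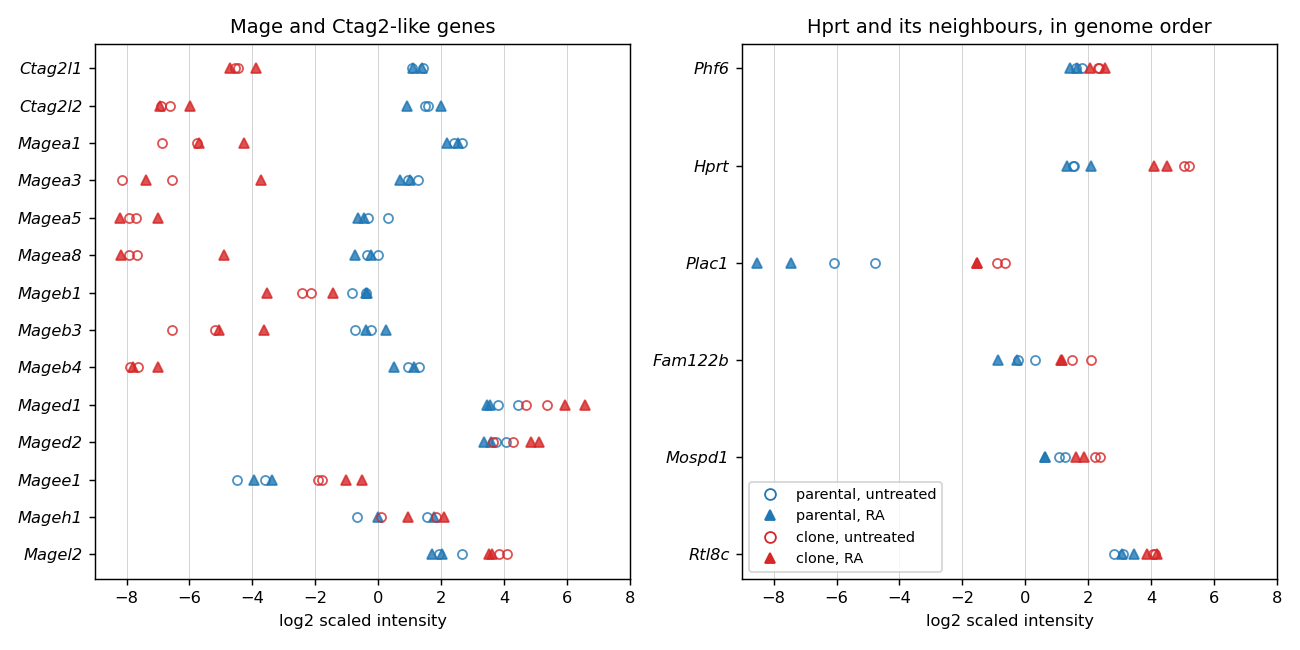
Log2 scaled intensity on each of the 8 arrays, 1 symbol per array, for the 14 tested Mage and Ctag2-like genes (left) and for Hprt and 5 neighbours in genome order (right), with blue for parental, red for clone, open circles for untreated and filled triangles for RA. Readings far to the left can lie below background. Magea, Mageb and Ctag2-like genes lie lower in the clone, and all 6 genes of the Hprt run lie higher.

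The separated genes were spread over all chromosomes but not evenly. Over all 15145 placed genes 17.4% were above and 13.5% below. On chromosome 6, 186 of 745 genes were above and 42 (5.64%) below. The shares above and below were 25.6% and 7.89% on chromosome 19, 22.6% and 8.79% on chromosome 3, and 22.5% and 8.32% on chromosome 16. The median difference of all genes on chromosomes 6, 19 and 3 was 0.34, 0.33 and 0.29, and 0.23, 0.23 and 0.16 after quantile normalization, against -0.03 for all placed genes on that scale. For chromosome 6 it was 0.39 without RA and 0.28 with RA. The X chromosome, which holds Hprt and, in RefSeq, 6 of the 7 tested Mage A and B genes, had high shares both ways, 23.9% above and 19.7% below. At the other end chromosome 14 had 11.1% above and 18.4% below, with a median of -0.13, and chromosome 10 had 13.5% and 17.4%. These are descriptions with no test, and the number of copies of each chromosome was not measured. The longest runs of neighbouring tested genes that were all separated in 1 direction held 8 genes of the zinc finger cluster around Zfp600 on chromosome 4 and 7 Vmn1r pheromone receptor genes on chromosome 7, all lower. Next came 6 runs of 6 genes, among them Phf6 to Rtl8c. Genes of the zinc finger, Vmn1r and class I clusters are near-identical, so such a run may repeat 1 reading.

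**Figure D5:**
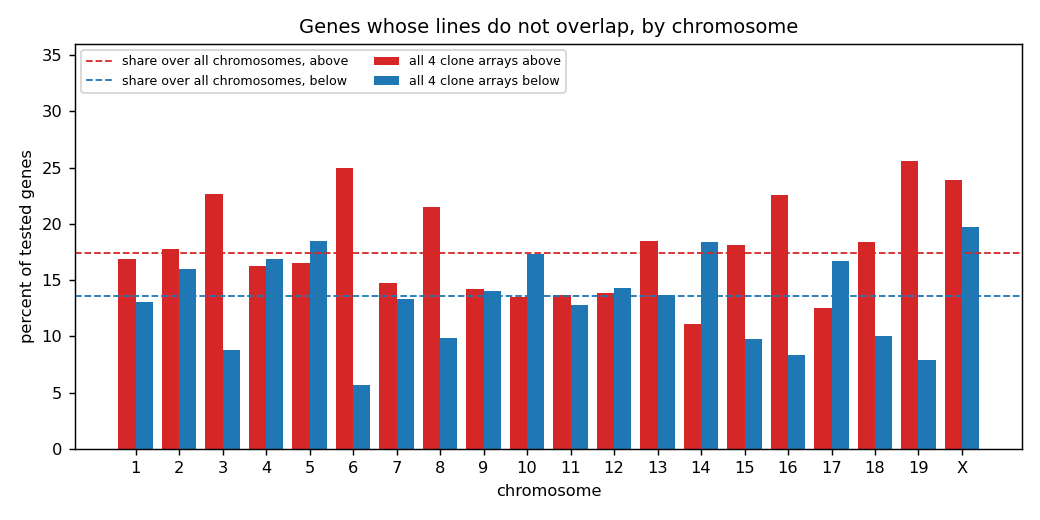
Percent of tested genes on each chromosome with all 4 clone arrays above (red) or below (blue) the parental arrays, with dashed lines at the shares over all chromosomes, 17.4% and 13.5%. Chromosomes 3, 6, 16 and 19 have the most genes above relative to genes below.

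A test of whether the line difference itself changed with RA, which slide row goes with, called 54 genes (0.206%), 21 of them separated. Dio2, which activates thyroid hormone, read -4.83, -4.88, -5.64 and -5.84 in the parental line, -2.35 and -2.04 in the untreated clone and 1.79 and 2.04 with RA, with 2 of 4 parental arrays above background. Its line difference was 2.66 without and 7.66 with RA (limma interaction adjusted p = 0.0159). Ppp1r14d, a phosphatase inhibitor, had fitted line differences of -3.07 and -7.66, with 2 of 4 clone arrays above background and neither of those with RA. Eppk1, an epithelial plakin, had fitted differences of -2.17 and -8.13, with 3 of 4 clone arrays above background. The count was 43 without clone RA replicate 1 and 1002 without clone RA replicate 2. It was 0 by limma without any 1 of the other 6 arrays, with 2434 to 3695 genes at an unadjusted p under 0.05, so the calls of single genes depend on each of those arrays.

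Markers of other cell types were read because the extraction protocol names hippocampus. Summed levels are in multiples of an array's 75th percentile. The 10 sympathetic neuroblast markers were all tested, and 1 rose (10%) and 2 fell (20%), against 14.2% and 9.7% of all genes. Their sum was 66.9 to 145 on parental and 106 to 228 on clone arrays. Of 10 hippocampal neuron markers 5 were tested and Neurod6, Prox1, Gad1, Gad2 and Calb1 were not, and the 5 tested summed to 5.84 to 7.77 on parental and 8.58 to 16.2 on clone arrays. Schwann and glial markers (8 tested) summed to 1.01 to 1.94 and 0.757 to 0.941, vessel, blood and microglia markers (7 tested) to 4.06 to 9.4 and 3.87 to 8.28, and fibroblast markers (6 tested) to 1.44 to 2.41 and 1.57 to 3.43. Called higher and lower were 2 and 0 hippocampal markers (40% and 0%) and 1 and 2 glial markers (12.5% and 25%). Vessel, blood and microglia markers had 1 and 1 (14.3% each), and fibroblast markers 2 and 0 (33.3% and 0%). With so few markers tested per list, these counts are no result about a cell type. The part of other cell types in the line difference was not tested.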

How the data were processed

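RNA of 8 samples was hybridised to 1-colour mouse arrays. The deposited intensity is the background-subtracted signal that Feature Extraction 10.7.3.1 wrote, per the file headers, unscaled from array to array. The authors also deposited a series table of log2 values, which equals the log2 intensity plus a constant per array and was used as an alternative. Here control spots and spots flagged as outliers were left out, log2 intensity was centred on the 75th percentile of each array, spots of a probe were averaged, and 150 of 55681 probes missing on an array were dropped. A probe was kept if 2 or more of the 8 arrays read it well above background, and the brightest represented each gene. Lines were compared with limma 3.58.1 in R 4.3.3 (treatment as covariate, 5 residual and 3.309 prior degrees of freedom) with Benjamini-Hochberg adjustment at 0.05 over all genes. The number of arrays limits the precision. The fit was tested on simulated data.

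Members and gene lists were chosen with earlier results of these data known. Lists are described by counts and medians without a set test. The text names genes by a rule: Chat and Lmna, the 10 widest gaps each way among called and separated genes measured on all arrays, the 6 largest bounds each way, up to 4 called and separated members of a list with the widest gap, the genes at the edge of the separation, the 4 smallest interaction p, and the longest runs. It gave 137 genes, and 25 more were added after values were seen, as were counts of lists under other settings. Symbols came through RefSeq accessions. Alternatives were normexp background correction (on the median spot signal, because the tables hold no mean signal, a change made after the files were seen), quantile normalization, the series table, other filters on dim probes, the mean of probes, 1 mean per group, a trended and robust variance, slide side as a block, a minimum change of 2-fold, and each array left out in turn. Coordinates of the array design were not used.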

Additional observations from a re-analysis of the deposited data

Results flagged for a closer look

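For 8 named genes the line difference itself differed between the treatments by the limma interaction test (adjusted p from 0.0159 to 0.0415, n = 2 arrays per group). The interaction, the difference with RA minus that without, was 5.24 for Lrrn4, 5.00 for Ctnna2, 5.00 for Dio2, 3.57 for Tfap2b and 3.55 for Scn11a. It was -5.96 for Eppk1, -4.59 for Ppp1r14d and -3.29 for Atf3. Of the clone arrays, 3 of 4 were above background for Eppk1 and 2 of 4 for Ppp1r14d, and of the parental arrays 2 of 4 for Dio2 and Ctnna2, so these sizes rest partly on readings below background. All 8 genes were separated, which fixes 1 sign for both treatments. The difference was larger with RA in Ctnna2, Dio2, Scn11a, Eppk1, Ppp1r14d and Atf3 and smaller with RA in Lrrn4 (-5.79 and -0.55) and Tfap2b (-5.23 and -1.66). The line difference of Lrrn4 was -3.17 (adjusted p = 0.0412), and its adjusted p was 0.0572 without parental RA replicate 1, 0.103 and 0.107 without clone untreated replicates 1 and 2, and 0.1 and 0.104 without parental untreated replicates 1 and 2. Tfap2b was dim on all clone arrays, and its line difference of -3.44 was -0.94 with normexp (adjusted p = 0.12). Slide row goes with this contrast, and its part was not tested.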

How the results depend on the processing

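The line difference was called for 6275 genes, for 3914 with normexp background correction, for 4089 with no filter on dim probes and for 4465 to 5345 without each array in turn. The other 8 settings gave 5089 to 7269. Separation held for 6633 genes, for 4858 to 6862 under 6 settings and for 7338 to 8111 without each array, where fewer arrays have to be separated. The interaction called 54 genes, 0 with normexp (2456 at an unadjusted p under 0.05) and 0 with no filter (3178), 21 with slide side as a block, 89 with quantile normalization, 310 over probes that all 8 arrays read above background, 456 with a trended and robust variance and 0 to 1002 without each array in turn. Of 2704 values of 162 named genes under an alternative, 2592 kept their direction and side of the threshold, 109 lost the call (27 genes), 2 gained it and 1 changed sign, Mt4, which was not called and ran from -0.352 to 0.0701 without each array, above 0 without clone RA replicate 2. No called named gene (0 of 155) moved by over 1.5 times without 1 array. Most named genes were chosen as called and separated on these same 8 arrays, which favours such stability. These counts of named genes are therefore no check on them and do not extend to all genes. The cause of these changes was not tested. No paired analysis was possible because the labels number the samples in 1 running series and share no replicate number between groups. Signal over background limits the dim end, where the bounds hold only for the main background treatment.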
